A study of Rattus norvegicus with 9 samples.

Results

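The platelet-derived growth factor (PDGF) family was followed in rat liver RNA through its 4 ligand genes, Pdgfa, Pdgfb, Pdgfc and Pdgfd, and its 2 receptor genes, Pdgfra and Pdgfrb. These 6 genes were found by their symbols, with no threshold on a value, among the 16730 genes listed in both deposited count tables. RNA sequencing was performed on the livers of 9 male Sprague–Dawley rats, with 3 rats in each of the groups normal control, model and TA, called Normal 1 to 3, Model 1 to 3 and TA 1 to 3 here after the replicate numbers of their labels. The normal control rats received saline. The model and TA rats received carbon tetrachloride (CCl4), a liver toxin that causes fibrosis when given repeatedly, at 2 ml/kg as a 50% solution in oil 2 times a week for 9 weeks. The TA rats were then treated for 6 weeks with tormentic acid (TA), a plant triterpene, at 3 mg/kg by the study's design, while the labels mark these livers TA1, TA2 and TA3 without a dose. The labels call the tissue of both CCl4-treated groups hepatitis stage liver, and what the model rats received during the weeks of TA treatment was not stated. Rats were fasted for 12 h before the tissue was taken.

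PDGF ligands are disulfide-linked dimers that bring receptor tyrosine kinase chains together at the cell surface. PDGF-A and PDGF-B are cut by furin-like proteases inside the cell, whereas PDGF-C and PDGF-D are secreted in a latent form whose CUB domain is removed outside the cell by proteases such as the plasminogen activators and matriptase. The α receptor, made from Pdgfra, binds the A, B and C chains, and the β receptor, made from Pdgfrb, binds the B and D chains. In injured liver the β receptor is known as a receptor of activated hepatic stellate cells, the vitamin A-storing cells that turn into collagen-producing myofibroblasts, and PDGF-B is among their strongest mitogens.

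Promoter sequence is shown for 3 of the 4 members that passed the adjusted threshold in the model group (Pdgfb, Pdgfd and Pdgfra) and, beside them, for Pdgfa, which did not, so that the letters upstream of each gene can be read against its values. RefSeq promoter sequences of the rat assembly GRCr8 were matched for 5 of the 6 members, all but Pdgfrb. The stretches below are the bases of these windows that lie before the annotated start of the gene, read 5′ to 3′ on the strand of the gene. The window of Pdgfc lay within the annotated gene and is not shown. Capitals mark a match on either strand to 1 of 6 short motifs, namely the TATA box TATAAA, the GC box GGGCGG, the AP-1 motif TGANTCA, the CCAAT box CCAAT, the E-box CACGTG and the CArG box.
Pdgfa, chr12:20759116-20759365, plus strand: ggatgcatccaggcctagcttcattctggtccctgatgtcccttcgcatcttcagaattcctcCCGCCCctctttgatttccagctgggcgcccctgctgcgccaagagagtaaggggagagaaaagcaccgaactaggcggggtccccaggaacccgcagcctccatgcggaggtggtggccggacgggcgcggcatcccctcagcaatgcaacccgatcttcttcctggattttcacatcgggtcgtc
Pdgfb, chr7:113438344-113438593, minus strand: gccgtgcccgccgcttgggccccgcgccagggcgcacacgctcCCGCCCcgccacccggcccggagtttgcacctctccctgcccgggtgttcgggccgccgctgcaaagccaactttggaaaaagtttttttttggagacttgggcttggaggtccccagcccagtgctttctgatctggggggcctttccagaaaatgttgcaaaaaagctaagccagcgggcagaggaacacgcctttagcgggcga
Pdgfd, chr8:11773258-11773334, plus strand: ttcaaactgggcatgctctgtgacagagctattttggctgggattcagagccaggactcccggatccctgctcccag
Pdgfra, chr14:33408605-33408766, minus strand: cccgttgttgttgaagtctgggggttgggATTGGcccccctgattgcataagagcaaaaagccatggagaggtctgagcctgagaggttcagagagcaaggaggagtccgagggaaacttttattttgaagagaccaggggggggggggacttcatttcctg
The stretches of Pdgfa and Pdgfb each held 1 GC box, as did the first 250 bases of 30.5% of the 33469 RefSeq promoters. That of Pdgfra held 1 CCAAT box, found in 23.3% of promoters over the same 162 bases. That of Pdgfd, 77 bases long, held none of the 6 motifs. The share of G and C was 60.8% for Pdgfa, 63.6% for Pdgfb, 55.8% for Pdgfd and 53.7% for Pdgfra. These matches describe letters in a window and were not tested as sites.

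Between 13156735 and 18090405 reads were counted per liver. Model 1 stood apart from the other livers. Its 50 most abundant genes took 27.9% of its reads, against 40.4% to 45.7% in the other 8 livers, and its TMM factor, by which edgeR scales the library total, was 1.72 against 0.819 to 1.17 elsewhere. Levels below are therefore CPM, the counts scaled to a library total of 1e6 after TMM, and results of the 6 genes that Model 1 moves are also given without it. Over all genes tested, the median log2 fold change was close to 0 with TMM, at 0.017, -0.0038 and -0.0096 in Model VS Normal, TA VS Model and TA VS Normal, and moved to 0.65, -0.48 and 0.18 with library totals alone. In bulk tissue, a change in the number of cells that carry an RNA and a change in the RNA per cell cannot be told apart. P-values of the fits set the difference between groups against the spread among the 3 rats of each group, which edgeR estimates with the help of other genes.

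In the model group, RNA of Pdgfb, Pdgfd, Pdgfra and Pdgfrb rose 5.14- to 14.7-fold over the normal control group. Each passed an adjusted p-value of 0.05 in edgeR's quasi-likelihood test, as did 7.87% of the 12730 genes tested. The same 4 genes passed the thresholds used in the study, a log2 fold change past 1 in size at an unadjusted p under 0.05, in the upward direction, as did 16.6% of all genes, while 5.55% of all genes passed them downward. For 5 of the 6 members the groups did not overlap, against 38.2% of all genes. The median log2 fold change of the members was 2.47. Most of these adjusted calls were lost when a normal control liver was left out. Without Normal 1 only Pdgfd passed, and without Normal 2 or Normal 3 no member and 0 of all genes passed. Without Model 1, Pdgfb lost the call (adjusted p = 0.0578). In each of these fits the 4 genes still passed the study's thresholds.

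In the TA group, the mean levels of Pdgfc, Pdgfd and both receptors lay between those of the normal control and model groups, and those of Pdgfa and Pdgfb lay just below the normal control means. Against the model group, the log2 fold changes ran from -2.71 for Pdgfb to -0.14 for Pdgfc, with a median of -1.24. No member had an adjusted p-value under 0.05, and 0% of the 12781 genes tested had one, although 1999 genes had an unadjusted p under 0.05 and DESeq2 called 520 genes, Pdgfa (adjusted p = 0.0488) and Pdgfb (adjusted p = 0.00466) among them. Over the alternatives tried with all livers, the adjusted p-value ran up to 0.263 for Pdgfa and 0.255 for Pdgfb, and with 1 liver left out up to 0.567 for both. Pdgfa, Pdgfb, Pdgfd and Pdgfrb passed the study's thresholds downward, as did 10.2% of all genes, and the groups did not overlap for these 4 genes or for 23.1% of all genes. Upward, 2.11% of all genes passed these thresholds.

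Against the normal control group, the TA livers had higher levels of Pdgfd and both receptors. The log2 fold changes were 2.50, 1.82 and 1.34 for Pdgfd, Pdgfra and Pdgfrb, all past the study's thresholds upward, as were 4.24% of the 12179 genes tested, while 1.02% passed them downward. None of the 6 had an adjusted p-value under 0.05, which 0.263% of all genes had. The groups did not overlap for 4 members and for 15.1% of all genes. The 3 comparisons share rats in pairs, so the values of a gene in one are not independent of those in the others.

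**Figure D1:**
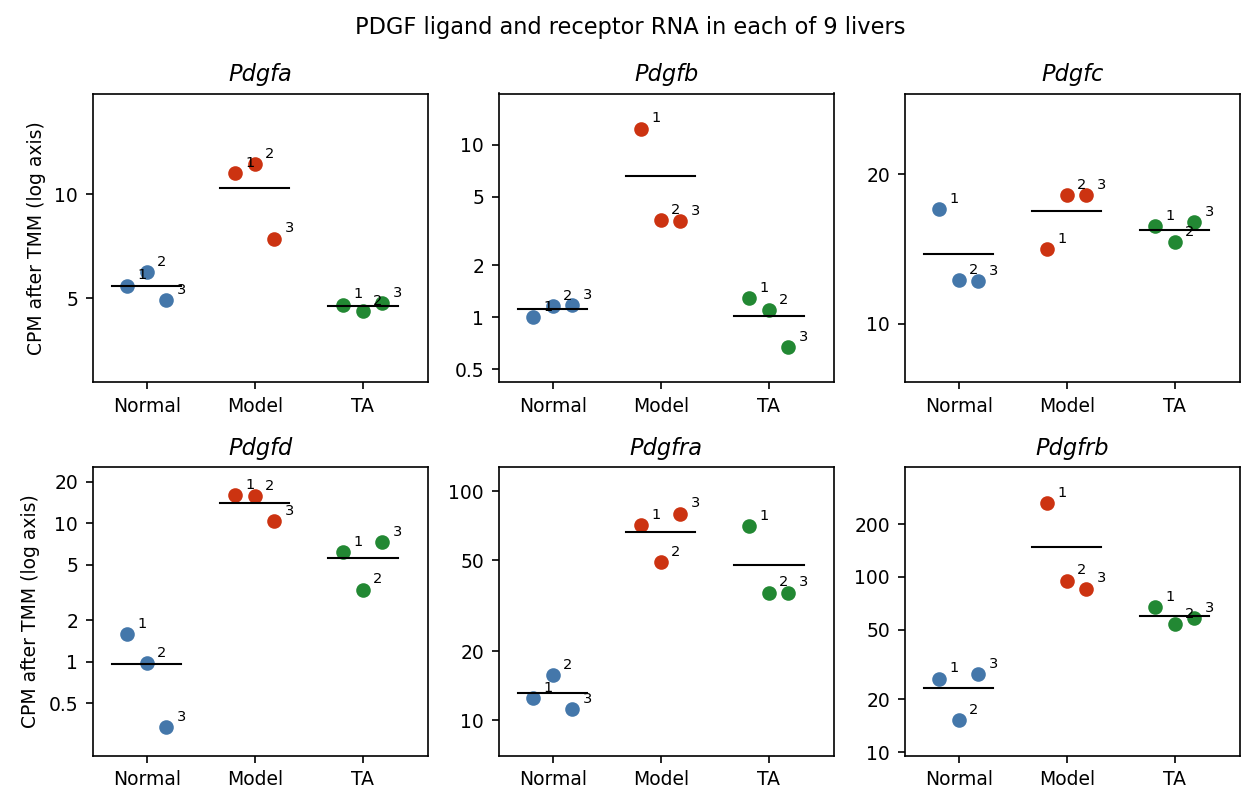
Level of each PDGF ligand and receptor RNA (CPM after TMM scaling, log axis) in the 3 normal control, 3 model and 3 TA livers. Points are livers marked with their replicate number and bars are group means. In the panels of Pdgfd, Pdgfra and Pdgfrb, all TA livers lie above all normal control livers, and in that of Pdgfb the TA and normal control livers overlap.

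Among the ligands, Pdgfb encodes the chain that binds both receptors. Its counts were 12, 18 and 14 in the normal control livers, 282, 56 and 51 in the model livers and 18, 13 and 9 in the TA livers. Every model liver lay above every other liver, with Model 1 far above the rest, and the normal control and TA livers overlapped. In CPM these were 1.11 ± 0.0942, 6.57 ± 5.08 and 1.02 ± 0.316 (mean ± SD, n = 3 in each group). Pdgfb rose 6.00-fold in Model VS Normal (log2 fold change 2.58, standard error 0.60, adjusted p = 0.0417). The TA VS Model value was -2.71 (standard error 0.63, unadjusted p = 0.00283, adjusted p = 0.246), the largest difference among the 6 genes. TA VS Normal gave -0.15, with a 95% interval from -1.07 to 0.76. Without Model 1 the log2 fold changes were 1.69 against the normal control group (adjusted p = 0.0578) and -1.82 for TA against model, so that the adjusted call was lost and the groups still did not overlap.

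Pdgfd encodes a ligand of the β receptor that needs cleavage outside the cell. It was the least abundant ligand per length in normal liver and the member with the largest change in the model group. Counts were 19, 15 and 4 in the normal control livers, 362, 242 and 146 in the model livers and 87, 39 and 98 in the TA livers. The size of its change thus rests on low normal control counts. In Model VS Normal it passed edgeR's filter on low counts only with the model livers. The groups did not overlap in any of the 3 comparisons, and the TA livers held the middle. The means were 0.965 ± 0.628, 14.0 ± 3.20 and 5.62 ± 2.07 CPM (SD, n = 3). Pdgfd rose 14.7-fold in Model VS Normal (log2 fold change 3.88, standard error 0.53, adjusted p = 0.0119). It was 2.52-fold lower in TA VS Model (log2 fold change -1.33, standard error 0.37, unadjusted p = 0.00739, adjusted p = 0.252) and 5.66-fold higher in TA VS Normal (log2 fold change 2.50, standard error 0.56, unadjusted p = 0.00186, adjusted p = 0.139). With 1 liver left out at a time, the log2 fold change stayed between 3.45 and 4.37, between -1.56 and -1.05 and between 2.11 and 3.01 in these comparisons.

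Pdgfa encodes a ligand that signals through the α receptor. Its counts were 65, 92 and 59 in the normal control livers, 261, 187 and 105 in the model livers and 67, 54 and 65 in the TA livers. Model livers were the highest, and the TA livers, at 4.75 ± 0.141 CPM (SD, n = 3), lay just below the normal control livers, at 5.44 ± 0.51 CPM, without overlap. Its log2 fold change against the normal control group, 0.95 (standard error 0.31, adjusted p = 0.0918), missed both criteria. The adjusted p-value was under 0.05 with limma voom (0.0214), library totals (0.0401), all 9 livers in 1 fit (0.0494) and without Model 3 (0.0466), and was at most 0.232 in the remaining alternatives. It passed the study's thresholds with limma voom (log2 fold change 1.00), library totals (1.61), without Normal 2 (1.00) and without Model 3 (1.13). For TA VS Model it was -1.15 (standard error 0.31, unadjusted p = 0.00625, adjusted p = 0.252) and -0.23 in TA VS Normal, with a 95% interval from -0.75 to 0.29.

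Pdgfc, the other latent ligand, binds the α receptor and was the ligand with the highest level per length in each group mean. Its counts were 203, 189 and 146 in the normal control livers, 321, 279 and 257 in the model livers and 220, 172 and 215 in the TA livers. The groups overlapped after scaling, at 13.8 ± 2.76, 16.8 ± 2.33 and 15.5 ± 0.763 CPM (SD, n = 3). Its log2 fold changes were 0.31, -0.14 and 0.14 in Model VS Normal, TA VS Model and TA VS Normal, with 95% intervals from -0.18 to 0.79, from -0.57 to 0.30 and from -0.30 to 0.57. None passed a criterion (adjusted p = 0.436, 0.779 and 0.946).

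Of the receptors, Pdgfra marks fibroblast-lineage cells in many tissues. Counts of Pdgfra were 149, 243 and 134 in the normal control livers, 1614, 751 and 1128 in the model livers and 984, 425 and 483 in the TA livers. All 6 livers of CCl4-treated rats lay above the normal control livers, and TA 1, at 70.4 CPM, lay within the range of the model livers. The means were 13.1 ± 2.33, 66.7 ± 15.9 and 47.5 ± 19.8 CPM (SD, n = 3). Pdgfra rose 5.14-fold in Model VS Normal (log2 fold change 2.36, standard error 0.27, adjusted p = 0.00925). Its TA VS Model value was -0.50 (standard error 0.35, adjusted p = 0.481), with a 95% interval from -1.18 to 0.18. In TA VS Normal it was 1.82 (standard error 0.31, unadjusted p = 0.000331, adjusted p = 0.0672), and 1.42 without TA 1.

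Pdgfrb encodes the β receptor, the family's best known marker of stellate cells and pericytes. Its counts were 314, 236 and 333 in the normal control livers, 6001, 1460 and 1212 in the model livers and 940, 634 and 779 in the TA livers. The groups did not overlap in any comparison, and Model 1, at 264.7 CPM, was the highest liver by far. The means were 23.1 ± 6.85, 149 ± 101 and 59.8 ± 6.87 CPM (SD, n = 3). Pdgfrb rose 6.54-fold in Model VS Normal (log2 fold change 2.71, standard error 0.51, adjusted p = 0.0266). The value for TA VS Model was -1.34 (standard error 0.47, unadjusted p = 0.0219, adjusted p = 0.274) and that for TA VS Normal 1.34 (standard error 0.26, unadjusted p = 0.000678, adjusted p = 0.0949). Without Model 1 the Model VS Normal value became 1.97 (adjusted p = 0.00865) and the TA VS Model value -0.60, where the gene then missed the study's fold threshold. It also missed the study's thresholds in TA VS Model without TA 2 (unadjusted p = 0.0725), without TA 3 (unadjusted p = 0.0695) and with limma voom (log2 fold change -0.70), so that it passed in 3 of the 6 fits with 1 liver left out.

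The main fit called neither receptor in TA VS Normal (adjusted p = 0.0672 for Pdgfra and 0.0949 for Pdgfrb). The labels name no shared animal or batch, so the replicate number as a block is an alternative and not a known pairing. Same-numbered TA and normal control livers deviated together from their group means, and with this block both receptors passed the adjusted threshold. The blocked log2 fold change was 1.76 for Pdgfra (adjusted p = 0.0253) and 1.38 for Pdgfrb (adjusted p = 0.0166). That of Pdgfd was 2.49 (adjusted p = 0.0702). Over the 10 other settings with all livers, the adjusted p-value ran from 4.62e-05 to 0.0768 for Pdgfra, from 0.000648 to 0.398 for Pdgfrb and from 0.00156 to 0.144 for Pdgfd. With 1 liver left out at a time, without the block, it ran from 0.0446 to 0.231, from 0.107 to 0.380 and from 0.150 to 0.428.

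**Figure D2:**
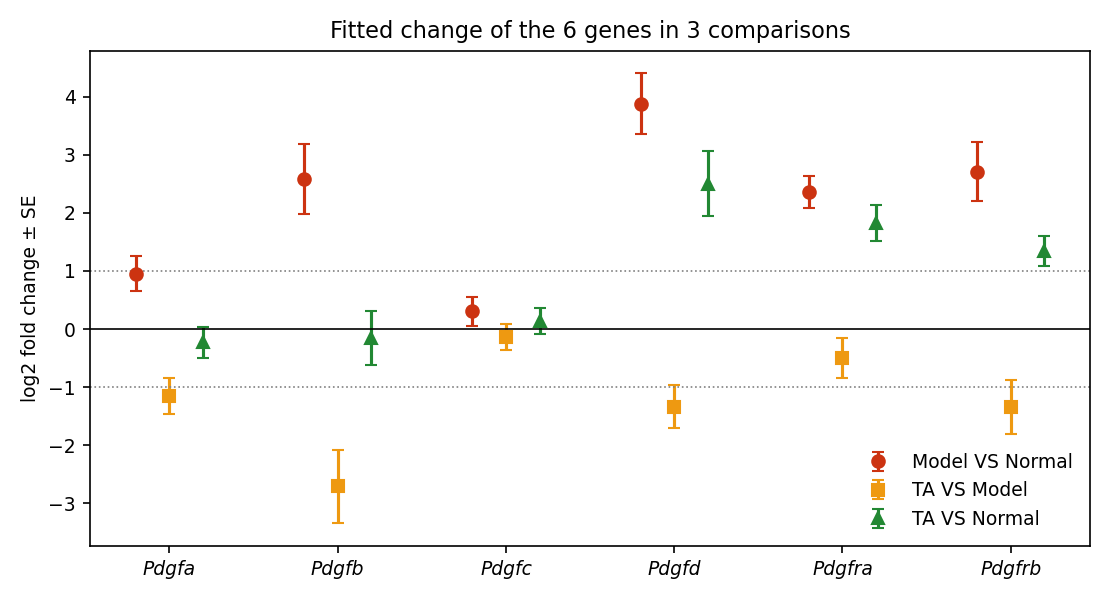
Fitted log2 fold change of the 6 genes with its standard error (edgeR) in Model VS Normal, TA VS Model and TA VS Normal, with dotted lines at a log2 fold change of 1 in either direction. Pdgfd, Pdgfra and Pdgfrb are above the upper line in both comparisons with the normal control group, and Pdgfb is near 0 in TA VS Normal at -0.15.

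In the exact permutation test of 3 livers against 3 (two-sided) on log2 CPM, each member without overlap between groups reached p = 0.1, the smallest p this design allows. That held for all members but Pdgfc in Model VS Normal. For TA VS Model it held for Pdgfa, Pdgfb, Pdgfd and Pdgfrb, and in TA VS Normal for Pdgfa, Pdgfd, Pdgfra and Pdgfrb.

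**Figure D3:**
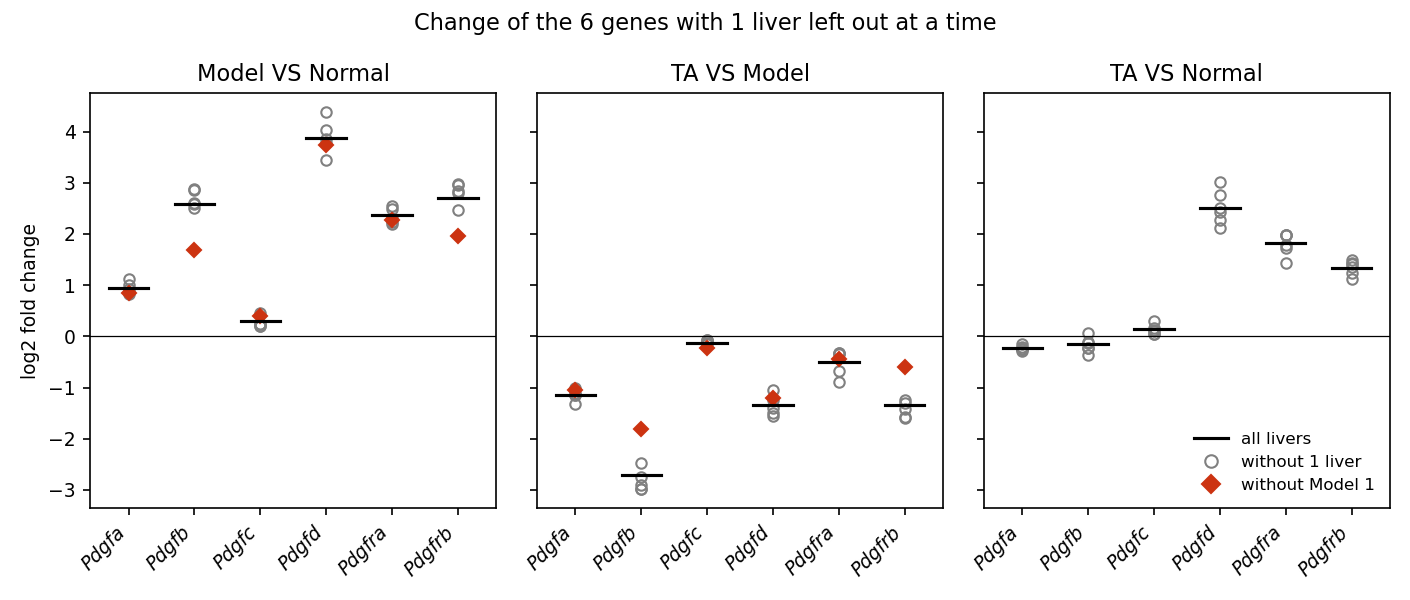
Log2 fold change of each gene in the fit of all 6 livers of a comparison (black bar) and with 1 liver left out at a time (points), the red diamonds being the fits without Model 1. Without Model 1, Pdgfb and Pdgfrb moved to 1.69 and 1.97 in the left panel and to -1.82 and -0.60 in the middle panel.

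Levels of different genes were compared per kilobase, with the gene lengths behind the deposited FPKM values (1891 bases for Pdgfa, 2185 for Pdgfb, 2716 for Pdgfc, 3721 for Pdgfd, 6514 for Pdgfra and 5698 for Pdgfrb). In normal liver the order of mean levels was Pdgfc, Pdgfrb, Pdgfa, Pdgfra, Pdgfb and Pdgfd, from 5.09 to 0.259 CPM per kilobase. Pdgfc and Pdgfrb overlapped in range, as did Pdgfrb and Pdgfa, and the remaining neighbours did not. In model liver the receptors led, with Pdgfrb at 26.1 and Pdgfra at 10.2 CPM per kilobase, ahead of Pdgfc, Pdgfa, Pdgfd and Pdgfb, whose neighbouring ranges overlapped. The order in TA liver was the same as in model liver, with Pdgfrb at 10.5 and Pdgfra at 7.30 CPM per kilobase and overlapping ranges for these and for Pdgfra and Pdgfc. These orders are descriptions over 3 livers each.

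The makeup of ligand RNA was described as the share of each ligand in the summed level per length of the 4. Pdgfc made up 58.0% on average in normal liver, 34.7% in model liver and 56.1% in TA liver. Pdgfd made up 1.16% to 4.27% in the normal control livers, 18.4% to 22.3% in the model livers and 9.68% to 18.3% in the TA livers. Its share in each TA liver thus lay above that in each normal control liver and below that in each model liver. The lowest of these shares, in Normal 3, rested on 4 counts of Pdgfd. The share of Pdgfb was 26.7% in Model 1, 8.77% and 11.0% in the other model livers, 4.59% to 6.93% in normal liver and 2.86% to 5.56% in TA liver. Pdgfa held 33.2%, 29.5% and 24.7% on average in the 3 groups.

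**Figure D4:**
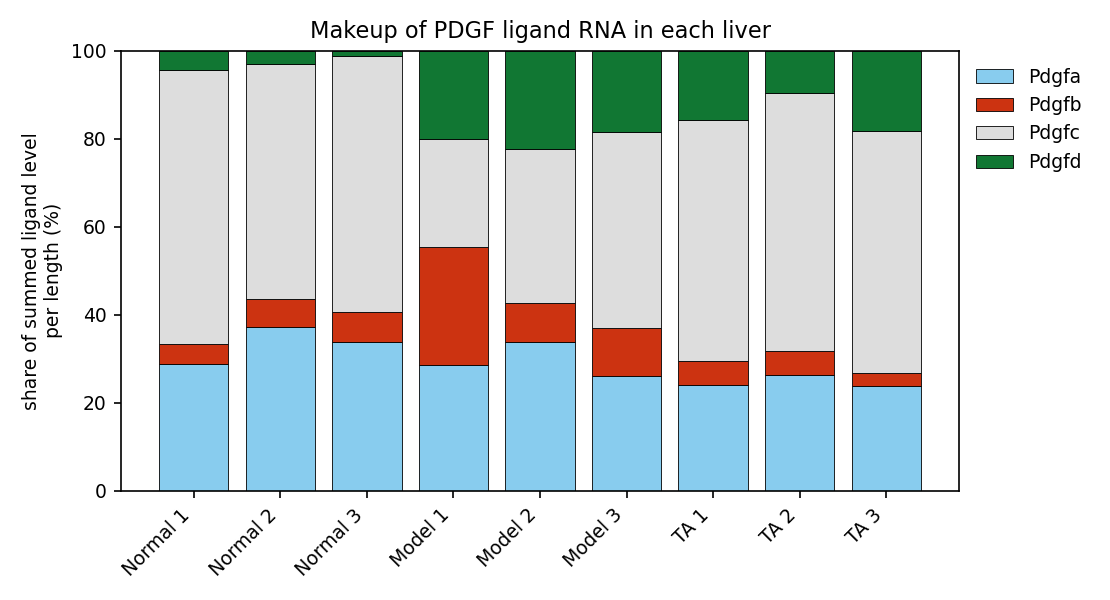
Share of each PDGF ligand in the summed ligand level per length (percent, stacked to 100) in each of the 9 livers. Pdgfd holds at most 4.27% in the normal control livers and at least 9.68% in the other 6 livers, and Pdgfb is largest in Model 1 at 26.7%.

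Ratios of counts within a liver do not depend on how libraries are scaled. The log2 ratio of Pdgfrb to Pdgfra counts was 0.78 ± 0.72 in normal liver, 0.99 ± 0.90 in model liver and 0.40 ± 0.41 in TA liver (SD, n = 3), with overlapping groups in all 3 comparisons. Its differences (0.21 for model less normal control, -0.59 for TA less model and -0.38 for TA less normal control) did not pass the exact permutation test (two-sided, p = 0.8, 0.4 and 0.4, adjusted over 3 comparisons 0.8, 0.6 and 0.6). Further ratios were chosen after their values had been seen and have no test. The log2 ratio of Pdgfra to Pdgfb was 3.21 to 3.72 in the normal control livers and 2.51 to 4.45 in the model livers, and 4.98 to 5.73 in the TA livers. That of Pdgfb to Pdgfrb was -4.65 to -3.68 in normal liver, -4.69 to -4.41 in model liver and -6.36 to -5.55 in TA liver. On both ratios the TA livers lay apart from the other 6, with less Pdgfb RNA for each receptor RNA, whereas model and normal control livers overlapped. Both ratios rest on the same Pdgfb counts and are not separate observations. These counts were low, at 9 to 18 in the TA livers and 12 to 18 in the normal control livers. The log2 ratio of Pdgfd to Pdgfb was -1.69 to 0.64, 0.36 to 2.10 and 1.55 to 3.37 in the 3 groups.

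**Figure D5:**
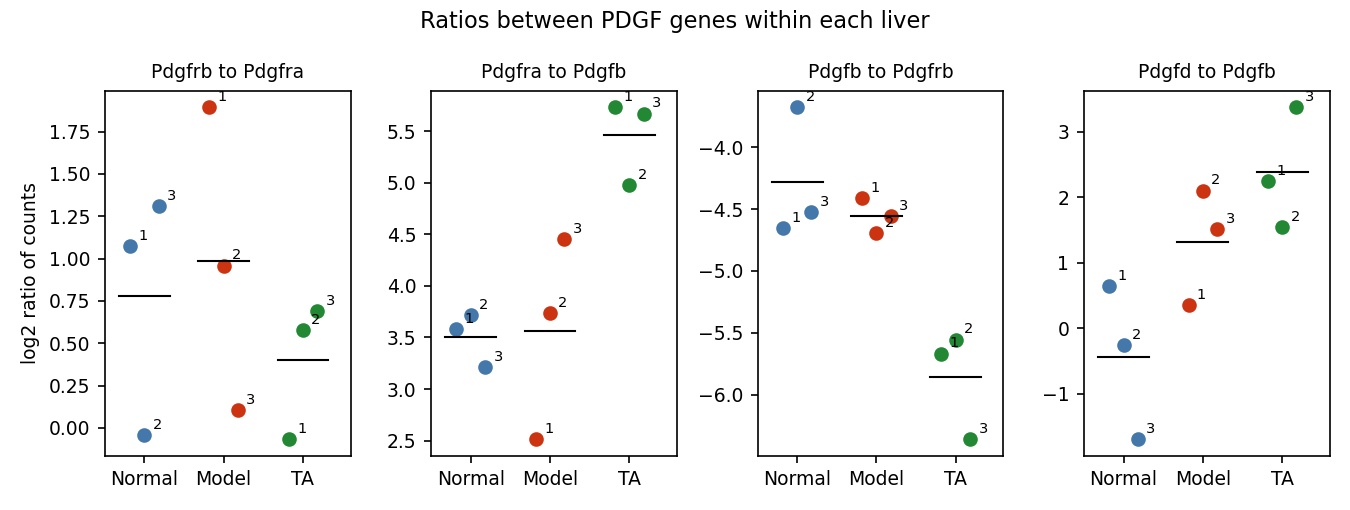
Log2 ratio of the counts of a pair of PDGF genes in each liver, with the mean of each group as a bar and the replicate number beside each point. For Pdgfra to Pdgfb the TA livers lie at 4.98 or above and the other livers at 4.45 or below, while Pdgfrb to Pdgfra overlaps between all groups.

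Counts of list genes below can be read against the shares of all genes that passed the study's thresholds, given above. A gene with few counts in the normal control livers could pass the filter on low counts through the model livers alone. An upward call in Model VS Normal is then favoured, and the share of all genes is a limited guide for such genes. Leaving out Model 1 was an alternative chosen for the lists after the data were seen. Without it, 12.2% of all genes passed upward and 3.77% downward in the model group against normal, while 1.18% passed upward and 4.96% downward in the TA group against model.

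The proteases that release the ligands were followed in a list of 6 genes, all tested. In Model VS Normal 3 passed the study's thresholds upward (all genes 16.6%) and 0 downward (5.55%), with a list median of 1.39. They were Plat, the tissue plasminogen activator, at a log2 fold change of 4.36 (adjusted p = 0.0159), St14, which encodes matriptase, at 3.02 (adjusted p = 0.0120), and Plau, the urokinase gene, at 2.17 (adjusted p = 0.123). The value of Plau was carried by Model 1, with counts of 752, 60 and 81 in the model livers and 52, 45 and 30 in the normal control livers. Without Model 1 it was at 0.56 and did not pass, Plat and St14 passed at 3.26 and 2.52, and the list median was 0.48. Counts of Plat were 51, 59 and 37 in the normal control livers, 3485, 727 and 343 in the model livers and 146, 94 and 154 in the TA livers, so that its groups did not overlap. Against the model group, Plat was in the TA group at -2.94 and St14 at -1.84, both past the study's thresholds (all genes 10.2% downward), with 0 genes upward, and without Model 1 both passed at -1.84 and -1.35. In TA VS Normal, Plat at 1.39 and St14 at 1.15 passed upward (all genes 4.24%) and 0 downward. Furin, Pcsk5 and Pcsk6, the furin-like proteases of the list, passed in none of the comparisons.

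Of 7 genes for proteins that bind PDGF or its receptors, 5 were tested in Model VS Normal, and 4 passed upward (all genes 16.6%), with a list median of 2.72. Thbs1 (thrombospondin 1) was at 3.65 (adjusted p = 0.0138), Sparc, which encodes a matrix protein that binds PDGF-B, at 3.47 (adjusted p = 0.0510), Nrp1, the neuropilin 1 gene, at 2.72 (adjusted p = 0.0273), and Cspg4, the NG2 proteoglycan of pericytes, at 2.69 (adjusted p = 0.0973). Counts of Cspg4 were 2, 7 and 10 in the normal control livers, 146, 30 and 12 in the model livers and 7, 0 and 14 in the TA livers. It passed the filter on low counts only with the model livers, which favours its calls. Without Model 1, Sparc at 1.92, Nrp1 at 1.94 and Thbs1 at 3.60 passed and Cspg4 at 1.52 did not. All 4 passed downward in TA VS Model, among 5 tested (all genes 10.2%), at -1.37, -2.24, -1.25 and -2.58, but 0 of 5 passed without Model 1, where these were at -1.35, -0.69, -0.48 and -1.41. Of 4 tested in TA VS Normal, Thbs1 at 2.25, Nrp1 at 1.43 and Sparc at 1.21 passed upward (all genes 4.24%). The remaining tested gene, Lrp1, passed in no comparison.

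The related class III receptor kinases and their ligands made a list of 7 tested genes. In Model VS Normal 5 passed upward (all genes 16.6%) and 0 downward (5.55%). Kitlg, the stem cell factor gene, was at 3.16 (adjusted p = 0.0104), the macrophage growth factor receptor gene Csf1r at 1.47, its ligand genes Csf1 at 1.39 and Il34 at 1.15, and Flt3 at 1.30. Without Model 1 only Kitlg at 2.91 and Flt3 at 1.57 passed, while Csf1r was at 0.50, Csf1 at 0.98 and Il34 at 0.52. Csf1 at -1.67, Kitlg at -1.23 and Il34 at -1.07 passed downward in TA VS Model (all genes 10.2%), Il34 not without Model 1 (-0.44), and in TA VS Normal Kitlg alone passed, upward at 1.89. Counts of Kitlg were 26, 31 and 12, then 442, 189 and 200, then 96, 47 and 119 in the normal control, model and TA livers, an order of groups without overlap like that of Pdgfd. Of 7 tested relatives in the VEGF branch of the family, Vegfd passed upward in Model VS Normal at 4.96 (adjusted p = 0.0119, all genes 16.6%), downward for TA VS Model at -1.75 and upward in TA VS Normal at 3.17. Kdr, a VEGF receptor gene of endothelial cells, was at -1.01 in the model group against normal and at 1.01 in the TA group against model. Without Model 1, Vegfd passed at 4.44 and -1.26, and Kdr missed the fold threshold in both comparisons.

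Inside the cell, the receptors pass their signal to adaptors and kinases. Of 29 tested genes of that list, 3 passed upward and 1 downward in Model VS Normal, where 16.6% and 5.55% of all genes did, and its median was 0.27. Fyn and Src, which encode Src-family kinases, were at 1.80 and 1.13, the adaptor gene Nck2 at 1.66 (adjusted p = 0.0365) and Map2k2, a MAP kinase kinase gene, at -1.04. Without Model 1, Fyn at 1.02 and Nck2 at 1.39 passed and Src at 0.64 and Map2k2 at -0.82 did not. Src at -1.60, Fyn at -1.12 and Nck2 at -1.09 passed downward in TA VS Model (all genes 10.2%) and 0 genes upward, with Src alone past the thresholds without Model 1 at -1.12, and in TA VS Normal 0 of 29 passed in either direction.

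Of 15 genes that restrain the receptors or their signal, 2 passed upward in Model VS Normal, where 16.6% of all genes did. They were Spry2, a Sprouty gene, at 2.05 (adjusted p = 0.0194) and Dusp6, a phosphatase gene that acts on ERK, at 1.17 (adjusted p = 0.0398), which was 0.97 without Model 1 and then missed the fold threshold. In TA VS Model 0 of 15 passed. In TA VS Normal Dusp6 at 1.57, Spry2 at 1.06 and Spry4 at 1.04 passed upward (all genes 4.24%), and 0 passed downward. The counts of Dusp6 were 226, 1275 and 747 in the TA livers and 249, 326 and 210 in the normal control livers.

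The immediate early genes, which growth factors switch on without new protein synthesis, made a list of 12 tested genes. In Model VS Normal 5 passed upward (all genes 16.6%) and 1 downward (5.55%). Fosb at 3.16 (adjusted p = 0.0198) and Fos at 2.11 (adjusted p = 0.0278) also passed an adjusted p-value of 0.05, while Egr2 was at 2.00, Myc at 1.65, Klf6 at 1.46 and Ier3 at -1.07. Without Model 1, Fosb at 3.17, Fos at 2.14 and Myc at 1.75 passed, and Egr2 at 1.05, Klf6 at 1.20 and Ier3 at -0.97 did not. In TA VS Model 0 of 12 passed, and in TA VS Normal Fosb at 2.11 and Fos at 1.52 passed upward (all genes 4.24%). Counts of Fos were 92, 152 and 90 in the normal control livers, 735, 278 and 799 in the model livers and 394, 310 and 253 in the TA livers, without overlap between the normal control livers and the others.

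Marker genes of the cells that could carry these RNAs moved between groups as well. The tissue label was checked first. The 7 hepatocyte markers, Alb among them, summed to between 26295 and 152394 CPM in every liver, and 2 pancreas genes to at most 2.09 CPM. The hepatocyte sum was lowest in Model 1. Of 7 tested myofibroblast markers, 6 passed the study's thresholds upward in the model group (all genes 16.6%) and 7 downward in the TA group against it (all genes 10.2%), which became 6 and 3 without Model 1. Their summed level was 205 to 358 CPM in normal liver, 1130 to 12065 in model liver and 589 to 1083 in TA liver. In TA VS Normal, 3 of 6 passed upward (all genes 4.24%) and 1 downward (1.02%). Portal fibroblast markers passed upward in 5 of 5 tested genes in Model VS Normal (all genes 16.6%), and in 4 of 5 without Model 1, with sums of 11.4 to 20.7, 113 to 375 and 52.4 to 81.8 CPM in the 3 groups. The normal control livers held 1, 4 and 0 counts of Thy1, 19, 10 and 1 of Cd34 and 28, 15 and 3 of Fbln2. These genes passed the filter on low counts only with the model livers, so that 5 of 5 was partly set by the filter. The sums of the myofibroblast and portal fibroblast lists were ordered as the levels of Pdgfrb were, without overlap between groups. Col3a1 gave the most to the first sum and Eln to the second, and other genes of the lists broke this order. Counts of Lox were 1278, 1354 and 309 in the normal control livers and 263, 168 and 198 in the TA livers. Levels of Acta2, Fbln2, Entpd2 and Cd34 overlapped between these groups.

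Hepatic stellate markers did not move together. Of 9 tested, Des at 3.59 and Rgs5 at 2.18 passed upward in Model VS Normal (all genes 16.6%), and Ecm1 at -1.91 and Gfap at -1.73 passed downward (5.55%). Without Model 1, Rgs5 was at 0.54 and did not pass. Their sum, to which Ecm1 gave the most, was 342 to 476 CPM in normal liver, 132 to 292 in model liver and 246 to 356 in TA liver, and its mean was lowest in the model group. Endothelial markers, of cells that make PDGF-B, passed upward in 4 of 7 in Model VS Normal (all genes 16.6%) and in 1 of 7 without Model 1, and their sums overlapped between groups at 123 to 166, 142 to 363 and 149 to 209 CPM. Of the platelet markers, 3 were tested. Pf4 at 3.03 and Gp1bb at 2.66 passed upward (all genes 16.6%) and Itga2b at -1.61 downward (5.55%) in Model VS Normal. Without Model 1 they did so too, at 1.86, 1.54 and -1.46, while Ppbp had at most 3 counts in any liver. Macrophage markers split too, with 4 of 8 upward (all genes 16.6%) and 2 downward (5.55%), which became 2 and 3 without Model 1. Trem2 and Gpnmb rose the most, at 7.29 and 6.72, and were at 4.84 and 3.71 without Model 1. Trem2 had 0, 3 and 7 counts in the normal control livers, so its value starts near 0, and it passed the filter on low counts only with the model livers. The sums of the list were 272 to 379, 184 to 1634 and 289 to 667 CPM in the 3 groups. Biliary markers passed upward in 5 of 5 and mesothelial markers in the 2 tested of 4, also without Model 1. Of all genes, 16.6% did with all livers and 12.2% without Model 1. The normal control livers held 1, 0 and 2 counts of Krt7, 14, 5 and 7 of Sox9, 24, 22 and 5 of Msln and 4, 4 and 5 of Wt1. These genes passed the filter on low counts only with the model livers, so that the full scores were partly set by the filter. The part of these cells in the levels of the PDGF genes was not tested.

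As a description of likeness, each member was compared with 7955 genes of a mean log2 CPM of at least 3 by Pearson's r of log2 CPM over the 9 livers, which share their library, depth and group differences. The 3 genes most like Pdgfrb were Scarf2, Pcolce and Plod2 (r from 0.994 to 0.996, and from 0.992 to 0.996 without Model 1). Pcolce encodes an enhancer of procollagen processing and Plod2 a collagen lysyl hydroxylase. Those most like Pdgfra were Gart, Thbs1 and Tgfb3 (0.964 to 0.982), and those most like Pdgfd were Prss23, Fgl2 and RGD1564664 (0.972 to 0.976). For Pdgfb they were Tle3, Mob3a and Ckap5 (0.959 to 0.960, and 0.888 to 0.909 without Model 1), for Pdgfa Tpm1, Glt8d1 and Vcam1 (0.921 to 0.959), and for Pdgfc Nt5c3a, Cd74 and RT1-Db1 (0.873 to 0.920). Among the members themselves, Pdgfd and Pdgfra were most alike at 0.904, at 0.888 without Model 1. Pdgfa and Pdgfb stood at 0.882 (0.852 without Model 1), Pdgfd and Pdgfrb at 0.865 (0.887) and Pdgfb and Pdgfc at 0.170 (0.526). The lowest of the 15 pairs was thus Pdgfb and Pdgfc over 9 livers and Pdgfa and Pdgfra, at 0.317, without Model 1.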

How the data were processed

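The livers of 9 rats were sequenced, and their groups (normal control, model or TA) come from the labels. The study trimmed reads with Trimmomatic and Cutadapt, mapped them with STAR and counted them with HTSeq-count, versions not given in the sources used here. The methods name hg19 and the submitters' processing notes mm9, while the gene symbols are written as rat symbols, so which reference lies behind the counts was not settled. The authors deposited raw counts per gene, without normalization, in 2 tables of 16938 and 16948 genes, and the counts of the model livers were the same in both for all 16730 shared genes. They also deposited a normalized signal (counts divided by DESeq2 size factors), which was not used here, and FPKM values, from which gene lengths were recovered. The authors deposited p-values and log2 fold changes of their own comparisons too, and these were not used here.

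Counts were tested with edgeR 4.0.16 in R 4.3.3 (quasi-likelihood test, TMM, its filter on low counts, only the 6 livers compared) and adjusted by the Benjamini-Hochberg method over all genes tested. A standard error is the size of the log2 fold change over the root of the F statistic, and 95% intervals span 1.96 standard errors to each side. This normal multiplier makes the intervals narrower than the F test behind the p-values would give with so few rats. Log2 CPM used a prior count of 2, and ratios a pseudocount of 0.5. An exact permutation test (two-sided) was also run on single members. Alternatives were DESeq2 1.42.0, limma 3.58.1 voom with quality weights, other scalings and filters, a newer and a robust form of the test, all 9 livers in 1 fit, a replicate block, and leaving out each liver. Counts of list genes without Model 1 were added after the data were seen. The fit was run on simulated data with planted changes, where only the recovered log2 fold changes were checked and not the rate of false calls. Depth was 13156735 to 18090405 counts per liver. Each rat gave 1 library, so variation from library preparation was not told apart from the variation among rats.

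Replicate numbers come from the labels, which name no shared animal or batch. Same-numbered livers of TA VS Normal had deviations from their group means that correlated at 0.26, 0.43 and 0.50 over genes. Livers of unlike numbers correlated at -0.45 to 0.17 there. The blocked value is given for that comparison as an alternative. In the other comparisons same-numbered livers correlated at -0.06 to 0.22.

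All 6 members are named. From each pathway list, every gene past the study's thresholds is named, from marker lists the counts, summed levels and genes a result turns on, and for each member the 3 genes with the highest correlation. The members and lists were chosen with earlier results of these data known. Of 159 genes in these lists and the family, 152 were matched, and Crkl, Ier2, Col1a2, Mfap4, Pecam1, Prss1 and Pnlip were not analysed here. Ratios other than Pdgfrb to Pdgfra were chosen after their values were seen.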

Additional observations from a re-analysis of the deposited data

How the results depend on the processing

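In Model VS Normal, 1002 genes and 4 members had an adjusted p-value under 0.05. The count of all genes was 2714 with DESeq2, 3433 with limma voom, 1980 with library totals and 1757 with all 9 livers in 1 fit. With 1 liver left out it ran from 0 to 2537 genes and from 0 to 5 members, with 1 member left without Normal 1 and 0 without Normal 2 or Normal 3. In TA VS Model, 0 genes became 520 with DESeq2, 2 members among them, 169 with limma voom, and 0 to 1 with 1 liver left out. In TA VS Normal, 32 genes and 0 members became 332 and 3 with DESeq2, 126 and 2 with limma voom, 76 and 1 with no filter on low counts, and 203 and 2 with the replicate block. The count was 56 genes with library totals and 14 with all 9 livers in 1 fit, and 1 to 61 genes and 0 to 1 member (Pdgfra, without TA 3) with 1 liver left out. The log2 fold change of Pdgfb in TA VS Normal turned to 0.031 with limma voom and to 0.037 with library totals, and ran from -0.36 to 0.075 with 1 liver left out. The difference in the Pdgfrb to Pdgfra ratio in Model VS Normal ran from -0.25 to 0.65 with 1 liver left out, and was -0.21 without Normal 2. The causes were not tested. Of the members' log2 fold changes under alternatives, 257 kept their direction and side of the adjusted threshold, 13 lost and 15 gained the adjusted call and 3 changed sign. In Model VS Normal the replicate block gave Pdgfb an adjusted p-value of 0.0528 and changed no other call of a member, and in TA VS Model it called 0 members. With 3 rats a group, single members could not reach an exact p under 0.1.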
